A study of Mus musculus with 22 samples.

Results

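Expression of 9 chemokine genes was examined in monocytes and macrophages sorted from the lungs of mice with inducible expression of a surfactant protein C mutant. The genes were taken from a fixed list of neutrophil-attracting and macrophage inflammatory chemokines. The CXC members were *Cxcl1*, *Cxcl2*, *Cxcl3*, *Cxcl5* and *Cxcl15*, and the CC members were *Ccl3*, *Ccl4*, *Ccl6* and *Ccl9*. All 9 were found, by Ensembl identifier, among the 31116 genes counted in both cell types.

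The 22 samples came from C57BL/6 mice carrying the SP-CI73T allele, which places the mutant protein in alveolar type II cells, the cells that make surfactant. Monocytes (Ly6Chi) were represented by 4 control samples, 4 samples taken 3 d after tamoxifen and 4 samples taken 14 d after tamoxifen. Macrophages (SigF+CD11b-) were represented by 4 control samples, 3 samples at 3 d and 3 samples at 14 d. The time points were chosen by the study as the initiation and the peak of injury, and the comparisons ask how each cell type differed from control at either time. Every group, controls included, carried the mutant allele, which is expressed at a low level until tamoxifen removes a neomycin cassette through an estrogen receptor-controlled Flp-O recombinase at the Rosa26 locus. The labels describe the controls as untreated. The study gives the control mice of the sequenced monocytes as SP-CI73T mice given oil, whereas its methods, for the work as a whole, also allow mice without the recombinase given tamoxifen, and no control treatment was found for the macrophages. Neither source assigns a mouse to each sample, so p-values here measure the spread between samples.

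The CXC members draw neutrophils out of the blood, and *Cxcl1*, *Cxcl2*, *Cxcl3* and *Cxcl5* are ligands of the receptor Cxcr2. Macrophages make *Cxcl1*, *Cxcl2* and *Cxcl3* within minutes to hours of a Toll-like receptor or interleukin signal, largely through NF-kB, whereas *Cxcl5* and *Cxcl15* (lungkine) are best known from lung epithelium. *Ccl3* and *Ccl4* encode the alpha and beta macrophage inflammatory proteins, which draw monocytes and lymphocytes. *Ccl6* and *Ccl9* encode rodent ligands of Ccr1 that myeloid cells make without stimulation.

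Monocyte libraries held 15451460 to 28789639 counts, and macrophage libraries 4610720 to 17074863. Values are counts scaled to library size (CPM). A count of 0 allows up to 3 counts, which is 0.120 to 0.161 CPM for a monocyte library and 0.197 to 0.504 CPM for a macrophage library, for counting error only. Libraries from 2 groups stood apart from the others of their cell type. The 3 d monocyte libraries held counts for 40119 to 41134 genes, against 24775 to 32492 genes in the other monocyte libraries. The 14 d macrophage libraries were the shallowest, with 4610720 to 6838893 counts, and still held counts for 27699 to 30627 genes, against 21499 to 27616 in the other macrophage libraries. *Xist* counts were 1 to 32 in all 14 d libraries of both cell types and 552 to 4444 in all others, and the Y-linked genes had the opposite pattern, with 433 to 3033 counts at 14 d and 0 to 3 elsewhere. Sex and the 14 d time point therefore cannot be told apart in either cell type. Defining markers of the labelled cells were present, with *Ly6c2* at 2570 to 3281 CPM in control monocytes and *Siglecf* at 231 to 348 CPM in control macrophages. *Itgam*, which encodes CD11b, was at 0.730 to 2.66 CPM in control macrophages but at 54.9 to 102 CPM in the 14 d macrophages, which goes against their CD11b- label.

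The genes lie in 2 clusters, with the CXC members on chromosome 5 and the CC members on chromosome 11 (GRCm38). RefSeq promoter windows (GRCm38.p6) were found for 7 of the 9 genes, all but *Cxcl5* and *Ccl4*. Stretches from the windows of *Cxcl1* (chr5:90891115-90891240), *Cxcl2* (chr5:90903769-90903870) and *Cxcl3* (chr5:90785971-90786100), all on the plus strand, are shown because they hold the same NF-kB site, with the NF-kB consensus and TATAAA in capitals.
Cxcl1: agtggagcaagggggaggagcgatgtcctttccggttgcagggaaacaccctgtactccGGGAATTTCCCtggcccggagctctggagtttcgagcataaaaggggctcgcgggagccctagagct
Cxcl2: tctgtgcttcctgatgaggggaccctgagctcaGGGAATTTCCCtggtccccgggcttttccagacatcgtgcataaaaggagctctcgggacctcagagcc
Cxcl3: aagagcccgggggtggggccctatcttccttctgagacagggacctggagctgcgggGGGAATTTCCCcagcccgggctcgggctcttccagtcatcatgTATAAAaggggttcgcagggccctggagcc

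Motifs were searched on both strands in the 250 bases before each start, with letters chosen after the sequences had been seen. GGGAATTTCCC is the longest run that the windows of *Cxcl1*, *Cxcl2* and *Cxcl3* share, and it occurred in these 3 of the 7 and in 14 of 32851 mouse promoter windows (0.0426%). The match began 71 bases before the RefSeq transcription start of *Cxcl1*, 97 bases before that of *Cxcl2* and 73 bases before that of *Cxcl3*. The stretches shown for *Cxcl1* and *Cxcl2* end at positions -5 and -29 from that start, where the GENCODE gene begins. Distances from the GENCODE starts therefore differ. The looser NF-kB consensus, which overlaps this run, was held by 4 of the 7 windows and by 7.25% of all windows, the fourth gene being *Ccl9*. TATAAA was present for *Cxcl3*, *Cxcl15* and *Ccl9* and in 12.4% of all windows.

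Stretches from the windows of *Ccl6* (chr11:83593088-83593217) and *Ccl9* (chr11:83578637-83578766), both on the minus strand, are shown for a shared run of 13 bases near the start of each gene, gccctccacttcc. Capitals mark GGAAGT on either strand, a core bound by PU.1, together with TATAAA and the NF-kB consensus.
Ccl6: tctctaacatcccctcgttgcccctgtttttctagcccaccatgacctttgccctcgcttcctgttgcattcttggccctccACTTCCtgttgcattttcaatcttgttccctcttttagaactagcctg
Ccl9: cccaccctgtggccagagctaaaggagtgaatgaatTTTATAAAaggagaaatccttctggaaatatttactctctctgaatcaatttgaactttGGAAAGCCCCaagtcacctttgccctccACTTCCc

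GGAAGT was present for *Ccl3*, *Ccl6* and *Ccl9* and in 19.7% of all windows. TGANTCA, a pattern looser than the AP-1 consensus at its middle base, was present for *Ccl9* alone among the 7 and in 6.75% of all windows. The match in *Ccl9* reads tgaatca, which is not the strict AP-1 consensus. A match describes letters in a window and is not a measured binding site.

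In length-adjusted level, *Ccl6* was the most abundant of the 9 in each of the 6 groups. Its mean level ran from 898 CPM per kilobase in 14 d macrophages to 5014 in 3 d macrophages. *Ccl9* was second in monocytes, at 643 CPM per kilobase in control, but stood at 59.8 in control macrophages, below *Ccl3* at 117 and *Cxcl2* at 88.0. *Cxcl5* and *Cxcl15* were the least abundant, with mean levels of at most 1.42 and 2.54 CPM per kilobase in any group. The plot of length-adjusted levels shows this spread over several orders of magnitude.

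**Figure D1:**
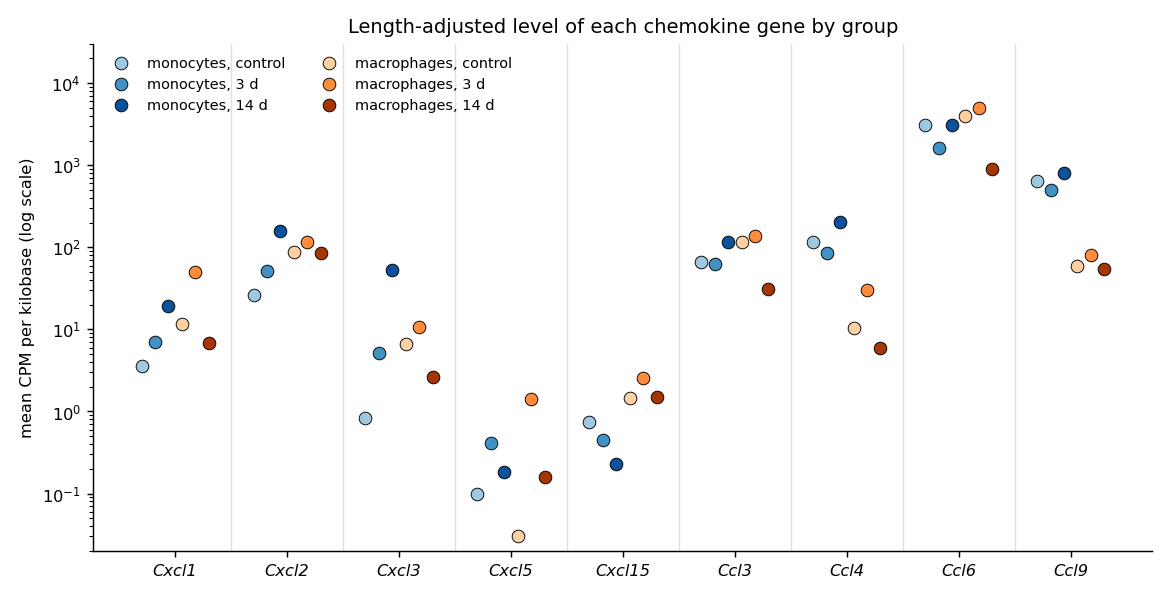
Mean level of each chemokine gene in each group, in CPM per kilobase of its longest protein-coding transcript, on a log axis, with CPM scaled over all 22 libraries; each point is 1 group (3 or 4 samples). *Ccl6* lies highest in every group, from 898 to 5014, and *Cxcl5* and *Cxcl15* lie lowest.

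Control macrophages had higher *Cxcl3*, *Cxcl2* and *Ccl3*, and control monocytes had higher *Ccl4* and *Ccl9*. In CPM scaled over all libraries, *Ccl9* was 1932 ± 265 (SD, n = 4) in monocytes and 180 ± 95.8 (SD, n = 4) in macrophages, a log2 difference of -3.43 ± 0.35 (SE), with q = 6.82e-08 (edgeR quasi-likelihood test, p-values adjusted by Benjamini-Hochberg, written as q from here on). *Ccl4* differed by -3.52 ± 0.38 (q = 1.09e-07), and its groups did not overlap. *Cxcl3* differed the other way, by 2.97 ± 0.50 (q = 3.24e-05), *Cxcl2* by 1.73 ± 0.45 (q = 0.00332) and *Ccl3* by 0.81 ± 0.25 (q = 0.00896). In all, 5 of the 9 members passed q under 0.05 and a fold above 1.5, the rule for a call here, against 44.2% of all genes tested. The call of *Ccl3* was lost with upper quartile scaling (q = 0.113) and without macrophage control replicate 2 (q = 0.0526). Cell types were tabulated separately, so a difference between them and a difference between the tables cannot be told apart.

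The NK and T cell markers moved with the monocyte groups and are given here because NK cells also make *Ccl3* and *Ccl4*. The 7 markers summed to 346 to 1452 CPM in control monocytes, 15.8 to 273 at 3 d and 19.3 to 38.9 at 14 d, and to 8.22 to 26.6 in any macrophage library. *Gzma*, a granule protease of these cells, was at 182 to 755 CPM in control monocytes and at 6.86 to 19.6 at 14 d. Their part in the levels of *Ccl3* and *Ccl4* was not tested. In such sorted bulk samples, fewer cells of a type and less RNA per cell cannot be told apart.

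Among the members tested, *Cxcl3* in 14 d monocytes had the largest difference from control. Its CPM in the 4 control samples was 0.497, 0.807, 1.41 and 0.325, which rested on 8 to 35 counts. At 3 d the values were 6.38, 2.33, 5.97 and 1.93. At 14 d they were 55.7, 46.1, 51.3 and 31.3. The 3 groups did not overlap, and every 14 d sample was above every 3 d sample, which in turn was above every control sample. The log2 difference from control was 2.44 ± 0.46 (SE) at 3 d (edgeR q = 0.00137), a 5.44-fold rise, and 5.91 ± 0.51 at 14 d (edgeR q = 1.16e-05), a 60.3-fold rise. From 3 d to 14 d it rose by a further 3.47 ± 0.44 (edgeR q = 0.000373). All 3 calls were kept under every alternative run, and the 14 d difference ranged from 5.65 to 6.43 over them.

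*Cxcl2* rose in monocytes at 14 d. Its CPM was 39.7, 32.1, 35.9 and 66.6 in control, 127, 54.0, 85.6 and 35.8 at 3 d, and 121, 264, 362 and 253 at 14 d. Each 14 d sample was above each control sample, whereas the 3 d samples overlapped with both groups. The log2 difference from control was 2.52 ± 0.41 at 14 d (edgeR q = 0.00159), a 5.74-fold rise that was called under every alternative run, and 0.80 ± 0.39 at 3 d (edgeR q = 0.0993). The 3 d difference passed the call rule with other scalings, at 1.27 with library size scaling (q = 0.0164), and also without 3 d replicate 4 (1.01, q = 0.0335) or without control replicate 4 (1.09, q = 0.0401). From 3 d to 14 d it rose by 1.72 ± 0.40 (edgeR q = 0.00499).

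*Cxcl1* was scattered in monocytes. Its CPM was 1.29 to 5.57 in control, 15.1, 0.898, 3.28 and 2.07 at 3 d, and 2.27, 20.7, 28.0 and 12.7 at 14 d. At 14 d, 3 of the 4 samples were above all controls, and replicate 1 was within the control range. The 14 d log2 difference was 2.41 ± 0.89 and did not pass the test (edgeR q = 0.127), although it did when only control and 14 d samples were fitted (q = 0.0374) or without 3 d replicate 1 (q = 0.0445). That replicate also set the sign at 3 d, where the difference was 0.84 ± 0.86 with it (edgeR q = 0.427) and -0.50 without it.

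*Cxcl2* and *Cxcl3* share an identical stretch of 110 bases in their coding transcripts, and of 157 bases over all their transcripts. The longest coding transcripts have 1859 and 1016 bases. No other pair of members shared a run of 75 bases. The study's methods give paired reads longer than the stretch of 110 bases, so a full read there reaches past it. Only read pairs wholly inside a shared stretch cannot be assigned to either gene with certainty. As a share of *Cxcl2* counts, *Cxcl3* counts were 0.489% to 3.92% in control monocytes and 4.32% to 6.97% at 3 d. At 14 d the share was 12.4% to 46.0%. The 3 ranges did not overlap. The part of misassigned reads in the *Cxcl3* values was not tested.

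*Cxcl5* and *Cxcl15* were near the floor in monocytes. *Cxcl5* had 0 to 12 counts in a control library, 4 to 18 at 3 d and 0 to 11 at 14 d, with no difference past the test. Without control replicate 3, which held the 12 counts, its 3 d difference passed (q = 0.0166). *Cxcl15* was at 0.699 to 2.13 CPM in control and 0.0986 to 0.639 CPM at 14 d. These groups did not overlap, with a log2 difference of -1.75 ± 0.60 (edgeR q = 0.0904). *Sftpc*, a marker of type II cells, was also lower at 14 d, by -2.002 ± 0.54 (edgeR q = 0.0363), with 18.1 to 104 CPM in control and 7.94 to 33.8 CPM at 14 d. This gene also carries the mutant allele, and tamoxifen alters its expression by design. Its level is thus not a plain measure of type II cell RNA. Of 10 epithelial markers tested at 14 d, 2 were called lower, *Sftpc* and *Sftpa1*, and 2 higher, *Cdh1* and *Krt8*, and the full list of 11 summed to 87.5 to 540 CPM in control and 101 to 277 CPM at 14 d. The part of epithelial RNA in the *Cxcl15* values was not tested.

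*Ccl3* and *Ccl4* did not differ from control in monocytes by the test at either time. *Ccl3* CPM was 57.2, 35.1, 33.2 and 55.7 in control, 47.0, 21.9, 52.4 and 33.0 at 3 d, and 53.9, 79.1, 75.2 and 96.6 at 14 d. *Ccl4* CPM was 43.1, 62.2, 76.5 and 92.2 in control, 37.3, 21.4, 68.2 and 53.1 at 3 d, and 83.2, 109, 120.2 and 145 at 14 d. In both genes the 14 d samples lay above the 3 d samples with no overlap and overlapped with control. The log2 difference from control at 14 d was 0.75 ± 0.27 for *Ccl3* (edgeR q = 0.115) and 0.74 ± 0.31 for *Ccl4* (edgeR q = 0.174). From 3 d to 14 d, *Ccl4* rose by 1.34 ± 0.31 (edgeR q = 0.0047), a call kept under every alternative run. *Ccl3* rose by 0.98 ± 0.28 (edgeR q = 0.0111), which was not called with 3 of the other scalings, at a difference of 0.51 to 0.59.

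*Ccl6* fell in monocytes at 3 d and overlapped with control at 14 d. Its CPM was 3873, 3679, 4476 and 3717 in control, 1603, 1541, 2134 and 2189 at 3 d, and 3452, 3962, 4270.2 and 3747 at 14 d. The 3 d samples lay below all others. The log2 difference at 3 d was -1.08 ± 0.14 (edgeR q = 0.000332) and at 14 d -0.03 ± 0.14 (edgeR q = 0.933). *Ccl9* was 1138 to 1287 CPM at 3 d and 1378 to 1918 in control, again without overlap. Its log2 difference of -0.51 ± 0.12 (edgeR q = 0.00393) was under the fold of 1.5 that a call needs. At 14 d, *Ccl9* was 1922 to 2239 CPM, above all controls, with a difference of 0.25 ± 0.12 that did not pass the test (edgeR q = 0.239). From 3 d to 14 d, *Ccl6* rose by 1.05 ± 0.14 (edgeR q = 0.000432) and *Ccl9* by 0.77 ± 0.12 (edgeR q = 0.000945). With TMM factors from abundant genes these rises were 0.58 and 0.30 and fell short of the fold of 1.5. Some alveolar macrophage markers changed in the same direction as *Ccl6* in monocytes. Of 9 tested, 4 were called lower at 3 d than in control, with a median of -1.69. Among genes with a mean log2 CPM above 5, 42.0% were called lower there. From 3 d to 14 d, 4 of the 9 were called higher, with a median of 1.43, where 29.9% of such genes were called higher. The 5 not called were *Siglecf* (0.17), *Car4* (-0.23), *Krt79* (-1.16), *Marco* (1.88) and *Fabp4* (1.43), so the markers did not move together. *Siglecf* had a mean of 3.21 CPM at 3 d and 3.60 CPM at 14 d. The list summed to 7429 to 15026 CPM in control, 4291 to 8981 CPM at 3 d and 15651 to 20987 CPM at 14 d, most of it from *Chil3*. The 14 d sums lay above all control sums, whereas *Ccl6* at 14 d overlapped with control. The part of alveolar macrophage RNA in the *Ccl6* and *Ccl9* values was not tested.

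At 3 d, 2 of the 9 members were called, *Cxcl3* higher and *Ccl6* lower, where 51.2% of all 22353 genes tested were called. By direction, 36.8% of genes were called higher and 14.4% lower. The groups did not overlap for 3 members, *Ccl9* being the other, and for 51.2% of genes. At 14 d, 2 of the 9 were called, *Cxcl3* and *Cxcl2*, both higher, where 8.56% of genes were called and 3.22% were called higher. Groups did not overlap for 4 members, with *Cxcl15* and *Ccl9* beside these, and for 13.7% of genes. Between 3 d and 14 d, 6 of the 9 were higher at 14 d, namely *Cxcl2*, *Cxcl3*, *Ccl3*, *Ccl4*, *Ccl6* and *Ccl9*, where 46.5% of genes were called, 2677 of the 22353 higher. Among the 4436 genes with a mean log2 CPM above 5, 29.9% were called higher between the times and the median was 0.46. Groups did not overlap for 5 of them, all but *Cxcl2*, and for 51.4% of genes. The median log2 difference of the members was -0.23 at 3 d, 0.74 at 14 d and 1.05 between the times, beside 0.22, 0.09 and -0.26 for all genes tested.

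The values at 3 d depend on the scaling. Among the 4436 genes with a mean log2 CPM above 5, the median difference at 3 d was -0.55 with TMM factors, and 42.0% of them were called lower. With TMM factors taken from such abundant genes, the *Ccl6* difference was -0.55 (q = 0.00654) and fell short of the fold of 1.5, the *Ccl9* difference was 0.01 (q = 0.945), and that of *Ccl3* turned from -0.23 to 0.29 (q = 0.417). The *Cxcl3* difference under that scaling was 2.97. The sign of the *Ccl3* and *Ccl9* differences at 3 d thus changed with the scaling, and that of *Cxcl3* and *Ccl6* did not.

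**Figure D2:**
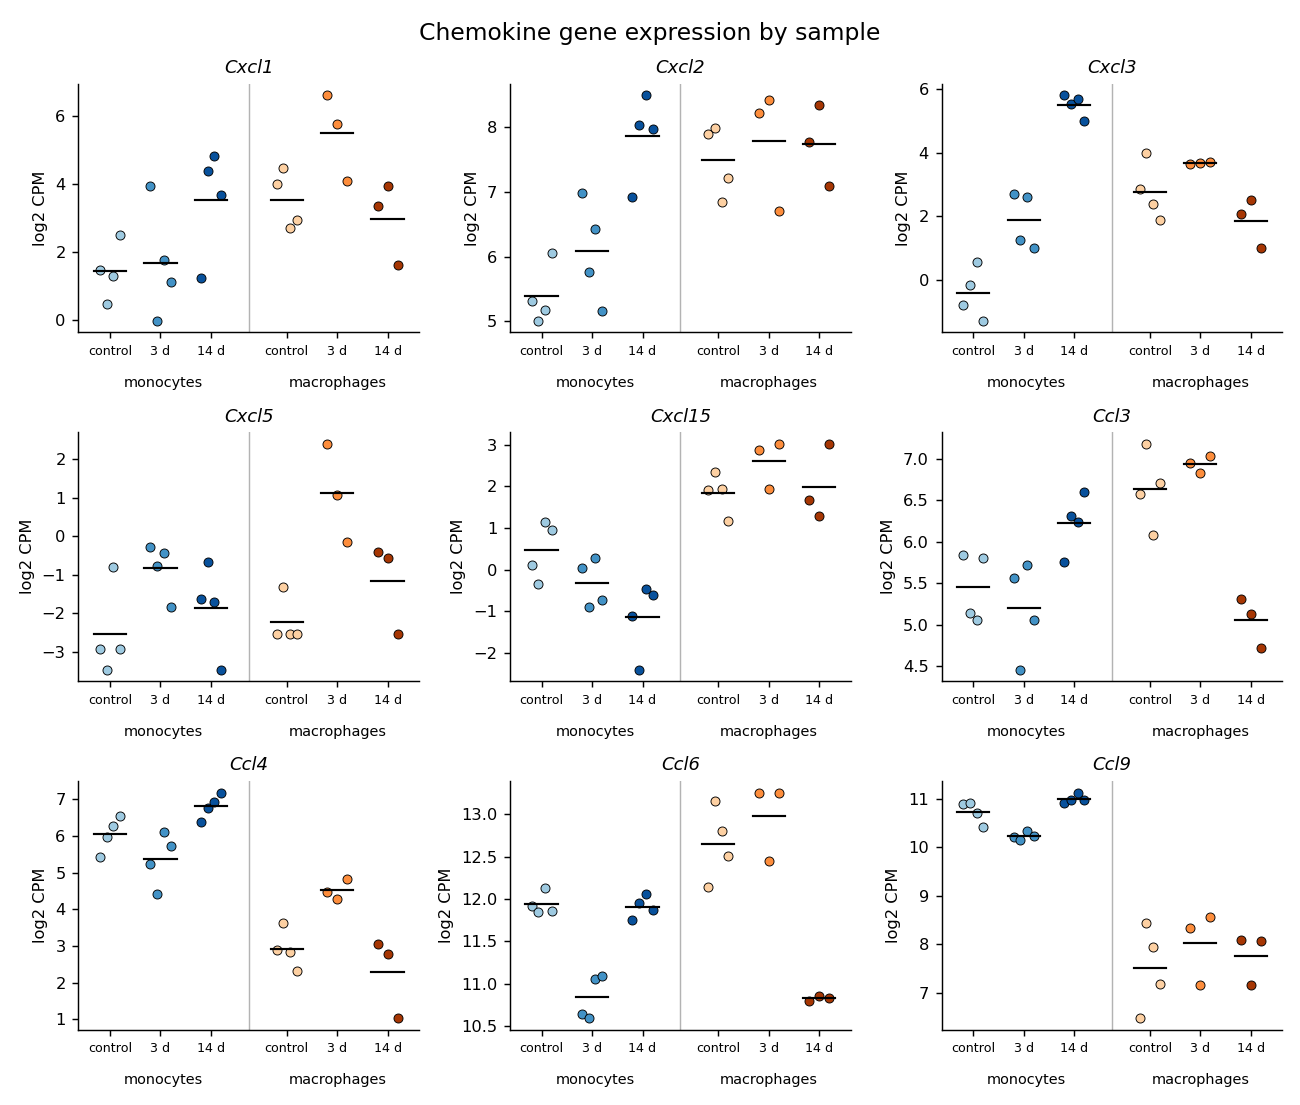
Expression of the 9 chemokine genes in each sample, as log2 CPM (prior count 2) with TMM scaling within each cell type; points are single samples and lines are group means. The 14 d monocytes lie above all control monocytes for *Cxcl2* and *Cxcl3*, and the 14 d macrophages lie below all other macrophages for *Ccl3* and *Ccl6*.

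Macrophages at 3 d had few differences from control. *Ccl4* rose, from 7.26, 12.2, 7.01 and 4.85 CPM in control to 22.1, 19.4 and 28.4 CPM, with no overlap. The log2 difference was 1.57 ± 0.35 (edgeR q = 0.0448), a 2.98-fold rise. It was the only one of 8 members tested to be called, where 1.27% of 20944 genes were called, 1.05% higher, and where groups did not overlap for 14.0%. The call lies close to the threshold and was lost without 3 d replicate 1 (q = 0.14) or 3 (q = 0.187), without control replicate 1 (q = 0.12), 3 (q = 0.127) or 4 (q = 0.12), and without 14 d replicate 2 (q = 0.0738), with the difference between 1.43 and 1.63. It was also lost with no filter on low counts (q = 0.0524) and when the fold was tested against 1.5 by glmTreat (q = 0.227).

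*Cxcl1* in macrophages was 15.9, 21.97, 6.29 and 7.502 CPM in control and 97.1, 53.9 and 16.7 CPM at 3 d. The groups overlapped through 3 d replicate 3, and the log2 difference of 2.12 ± 0.71 did not pass the test (edgeR q = 0.229). *Cxcl3* at 3 d was 12.4, 12.6 and 12.9 CPM, within the control range of 3.52 to 15.8 CPM. *Cxcl2* and *Ccl3* also overlapped with control at 3 d, with differences of 0.40 ± 0.46 (edgeR q = 0.753) and 0.25 ± 0.20 (edgeR q = 0.618).

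*Cxcl5* was the member that did not pass the filter on low counts in macrophages. Its counts were 0, 3, 0 and 0 in the control libraries, 71, 25 and 7 at 3 d, and 4, 4 and 0 at 14 d. The 3 d libraries lay above the others in CPM, at 5.09, 1.94 and 0.730 against at most 0.576. No test is given for it. *Cxcl5* shares a run of 75 bases with transcripts of 5 other genes, so part of its counts may be uncertain. *Cxcl15* was at 2.06 to 4.94 CPM in control macrophages and 3.65 to 7.92 CPM at 3 d, a difference of 0.81 ± 0.41 (edgeR q = 0.397).

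Markers of other cells moved with these values. The 11 markers of alveolar and airway epithelium summed to 245 to 361 CPM in control macrophages and to 718 to 1107 CPM at 3 d. Within that list the directions differed, with 2 of 11 called higher, *Krt8* and *Krt18*, 1 lower and 8 not called. Of all genes tested, 1.05% were called higher. *Scgb1a1*, from airway club cells, was at 15.1 to 70.6 CPM in control and 320 to 653 CPM at 3 d. Its difference did not pass the test (edgeR q = 0.0739). *Sftpc*, the gene of the mutant allele whose expression tamoxifen alters by design, fell by 1.70 ± 0.22 (edgeR q = 0.00125). The 8 markers of eosinophils and basophils summed to 3.25 to 5.96 CPM in control and 38.6 to 89.3 CPM at 3 d, and *Mcpt8*, a basophil protease, rose by 4.11 ± 0.81 (edgeR q = 0.0296). The part of these cells in the *Cxcl1*, *Cxcl5* and *Ccl4* values was not tested.

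Macrophages at 14 d had lower *Ccl3* and *Ccl6*. *Ccl6* CPM was 4528, 9109.9, 7174 and 5836 in control, 9729, 5569.8 and 9788 at 3 d, and 1781, 1852 and 1816 at 14 d. *Ccl3* CPM was 95.4, 145, 67.4 and 104 in control, 123, 114 and 131 at 3 d, and 39.6, 34.9 and 26.2 at 14 d. For either gene each 14 d sample was below each of the other 7 samples. Against control, *Ccl6* fell by 1.88 ± 0.24 on the log2 scale (edgeR q = 1.48e-05) and *Ccl3* by 1.61 ± 0.22 (edgeR q = 2.54e-05), and both calls were kept under every alternative run. These were the 2 called of 8 members tested, where 62.3% of genes were called and 22.9% were called lower, and where groups did not overlap for 70.8%. Among the 5553 genes with a mean log2 CPM above 5, 47.8% were called lower and the median difference was -0.56, so a fall at 14 d was common among abundant genes. With TMM factors from such genes the differences were -1.30 for *Ccl6* and -1.06 for *Ccl3*.

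The remaining members did not differ between 14 d and control macrophages by the test. *Cxcl2* was 239, 254, 115 and 148 CPM in control and 218, 327 and 136 CPM at 14 d, a difference of 0.26 ± 0.47 (edgeR q = 0.632). *Cxcl3* was 7.05, 15.8, 5.05 and 3.52 CPM in control and 4.03, 5.54 and 1.86 CPM at 14 d, a difference of -1.01 ± 0.47 (edgeR q = 0.0714) that passed without control replicate 3 (q = 0.0473) or 4 (q = 0.0134). *Ccl4* was at 1.86 to 8.07 CPM at 14 d, overlapping with control. *Ccl9* varied by nearly as much within control, from 88.3 to 346 CPM, as over all macrophages.

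From 3 d to 14 d, 5 of 8 members fell in macrophages, where 56.4% of genes were called, 20.0% were called lower and groups did not overlap for 65.5%. *Ccl6* fell by 2.20 ± 0.25 (edgeR q = 2.55e-05), *Ccl4* by 2.05 ± 0.41 (edgeR q = 0.00105) and *Ccl3* by 1.87 ± 0.23 (edgeR q = 3.83e-05). *Cxcl3* fell by 1.70 ± 0.50 (edgeR q = 0.0094). The fall of *Cxcl1*, by 2.56 ± 0.83 (edgeR q = 0.0271), was not called without 3 d replicate 1 (q = 0.0684), 14 d replicate 1 (q = 0.0707) or 14 d replicate 3 (q = 0.077), nor with library size scaling (q = 0.0512) or TMM factors from abundant genes (q = 0.0507). The median of the members was -1.78, beside 0.16 over all genes tested and -0.50 over the 5553 genes with a mean log2 CPM above 5, of which 42.6% were called lower.

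At 14 d, 39.4% of all genes tested in macrophages were called higher than in control and 22.9% lower. Of 8 neutrophil markers tested there, 6 were called higher and 1 lower. The full list of 11 summed to 107 to 226 CPM in control, 140 to 208 CPM at 3 d and 408 to 1609 CPM at 14 d, and *S100a8*, a calcium-binding protein of neutrophils and monocytes, rose by 6.08 ± 0.71 at 14 d (edgeR q = 0.000167). The lower one was *Mmp8*, a collagenase of neutrophil granules, at 53.7 to 195 CPM in control and 15.7 to 21.9 CPM at 14 d (-2.43 ± 0.41, edgeR q = 0.000516). The 8 eosinophil and basophil markers summed to 48.0 to 124 CPM at 14 d, with *Prg2*, a granule protein of eosinophils, at 18.5 to 82.8 CPM against at most 1.14 CPM in control. Of the 9 alveolar macrophage markers, 6 were called lower at 14 d, with *Siglecf* lower by -1.43 ± 0.28 (edgeR q = 0.000657). Among genes with a mean log2 CPM above 5, 47.8% were called lower. The part of other cells in the falls of *Ccl3* and *Ccl6* was not tested.

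**Figure D3:**
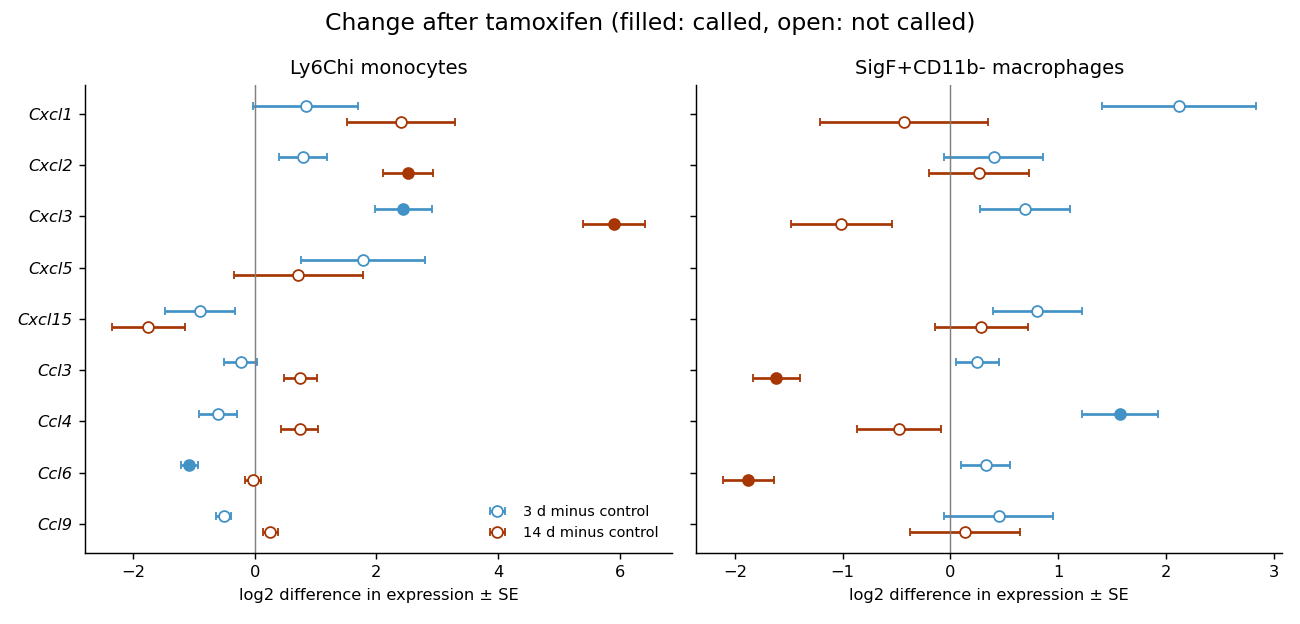
Log2 difference from control of each chemokine gene at 3 d and 14 d in monocytes (left) and macrophages (right), with bars of 1 standard error from edgeR; filled points were called and open points were not, the panels have different x axes, and *Cxcl5* was not tested in macrophages. *Cxcl3* in monocytes lies furthest from 0, at 5.91 at 14 d, and *Ccl3* and *Ccl6* are called only at 14 d in macrophages and, for *Ccl6*, at 3 d in monocytes.

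The difference between cell types was tested directly as an interaction over all 22 samples. At 14 d, 5 of 9 members changed differently, each lower in macrophages relative to monocytes, where 37.0% of 26692 genes differed and 20.1% were lower. Among the 5122 genes with a mean log2 CPM above 5, 56.4% were called lower in this sense and the median was -0.85. The difference between the changes, macrophages minus monocytes on the log2 scale, was -7.26 ± 0.75 for *Cxcl3* (edgeR q = 1.14e-06), -2.70 ± 0.38 for *Ccl3* (edgeR q = 1.2e-05), -2.59 ± 0.66 for *Cxcl2* (edgeR q = 0.00555) and -2.19 ± 0.27 for *Ccl6* (edgeR q = 3.51e-06). That of *Ccl4*, -1.55 ± 0.55 (edgeR q = 0.0323), was lost with each of the other scalings, and also without macrophage 14 d replicate 3 (q = 0.0843), macrophage control replicate 2 (q = 0.0664), monocyte control replicate 1 (q = 0.0551) or monocyte control replicate 2 (q = 0.0544). At 3 d, 2 of 9 members changed differently, *Ccl4* by 2.02 ± 0.52 (edgeR q = 0.0131) and *Ccl6* by 1.23 ± 0.27 (edgeR q = 0.00416), both higher in macrophages relative to monocytes, where 18.8% of genes differed and 3.62% were higher. Among the 5122 genes with a mean log2 CPM above 5, 11.4% were called higher at 3 d and the median was 0.30. The fall of *Ccl6* thus appeared at 3 d in monocytes and at 14 d in macrophages.

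The order of levels over the 6 groups differed by gene, in CPM scaled over all libraries. *Cxcl3* was highest in 14 d monocytes, at 53.7 ± 12.6 (SD, n = 4), apart from the next group, 3 d macrophages, at 10.9 ± 0.292 (SD, n = 3). *Cxcl2* was also highest in 14 d monocytes, at 290.4 ± 113 (SD, n = 4), but each neighbour in its order overlapped with the next. *Cxcl1* was highest in 3 d macrophages, at 48.1 ± 34.9 (SD, n = 3), and all its neighbours overlapped too. *Ccl9* fell into separate groups of monocytes, with 14 d at 2384 ± 143 (SD, n = 4), control at 1932 and 3 d at 1512, and the macrophage groups overlapped at 163 to 244. For *Ccl3* neighbouring groups overlapped throughout, from 106 ± 8.71 (SD, n = 3) in 3 d macrophages to 23.9 ± 4.61 (SD, n = 3) in 14 d macrophages.

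*Ccr1*, a receptor of *Ccl3*, *Ccl6* and *Ccl9*, rose in 14 d monocytes by 2.21 ± 0.27 (edgeR q = 0.00015). *Ccr1* went from 87.6 to 175 CPM in control to 536 to 688 CPM at 14 d. In 14 d macrophages *Cxcr2* rose by 3.02 ± 0.40 (edgeR q = 9.73e-05) and the eosinophil receptor *Ccr3* by 6.30 ± 0.80 (edgeR q = 3.15e-05), and *Cxcr1* was called lower. *Cxcr2* was at 22.3 to 80.4 CPM there, and neutrophils carry this receptor. At 3 d, *Ccr1* and *Cxcr2* were called higher in monocytes.

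In 14 d monocytes, 3.22% of all genes were called higher than in control and 5.34% lower. Of 10 other chemokine genes tested there, 5 were called higher and 2 lower. The higher ones included *Ccl8* (7.30 ± 0.86, edgeR q = 0.000225), *Ccl12* (5.79 ± 0.88, edgeR q = 0.00145) and *Ccl7* (5.64 ± 1.09, edgeR q = 0.00815), which draw monocytes through Ccr2 and related receptors. *Ccl5*, which NK and T cells also make, was lower (-4.55 ± 1.04, edgeR q = 0.0197). In macrophages at 14 d, 2 of 9 were called higher, where 39.4% of all genes were called higher.

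Cytokines and receptors that raise these chemokines did not move together. Of 13 tested in monocytes, 1 was called higher and 4 lower at 3 d, and 5 were called higher and 2 lower at 14 d. Of all genes, 51.2% were called at 3 d and 8.56% at 14 d. At 3 d, 42.0% of genes with a mean log2 CPM above 5 were called lower. *Il1b* fell at 3 d by 1.17 ± 0.27 (edgeR q = 0.0035) and was -0.30 ± 0.27 from control at 14 d (edgeR q = 0.561). *Csf1*, the macrophage growth factor, rose by 3.97 ± 0.64 at 14 d (edgeR q = 0.00171). In macrophages, *Il6* rose at 3 d, from 2.29 to 10.9 CPM in control to 29.3 to 44.9 CPM, by 2.93 ± 0.45 (edgeR q = 0.012), and *Csf1* rose by 3.44 ± 0.49 (edgeR q = 0.0135). At 14 d, 3 of 13 were called higher in macrophages and 6 lower, where 62.3% of all genes were called and 47.8% of genes with a mean log2 CPM above 5 were called lower. The higher ones included *Il1b* (2.38 ± 0.81, edgeR q = 0.0313) and the lower ones *Tlr2* (-1.46 ± 0.26, edgeR q = 0.000323).

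Of 16 NF-kB genes in monocytes, 1 was called higher and 8 lower at 3 d, where 51.2% of all genes were called and 42.0% of genes with a mean log2 CPM above 5 were called lower. At 14 d, 1 was called higher and 1 lower, where 8.56% of all genes were called. The subunit *Rel* was lower at both times, by -1.24 ± 0.26 (edgeR q = 0.00206) and -1.01 ± 0.26 (edgeR q = 0.0232), and the feedback gene *Tnip3* was higher at both, by 1.44 ± 0.47 (edgeR q = 0.019) and 1.90 ± 0.47 (edgeR q = 0.0224). In macrophages 2 of the 16 were called higher at 3 d, where 1.05% of all genes were called higher. Among them was *Tnfaip3* (1.11 ± 0.19, edgeR q = 0.0104), an inhibitor of NF-kB signaling. At 14 d, 4 were higher, with *Nfkbia* at 1.21 ± 0.21 (edgeR q = 0.000143), and 3 were lower. Of all genes, 39.4% were called higher there and 22.9% lower.

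Of 17 immediate early genes, which respond within minutes and also to tissue digestion, 9 were called lower and 1 higher in monocytes at 3 d, where 42.0% of abundant genes were called lower. At 14 d, 3 were called lower and 1 higher, where 12.5% of abundant genes were called lower. The 17 genes summed to 10456 to 15930 CPM in control, 4574 to 6217 CPM at 3 d and 5199 to 10809 CPM at 14 d. *Nr4a1*, an orphan nuclear receptor, was lower by -2.29 ± 0.24 at 3 d (edgeR q = 0.000138) and -2.26 ± 0.24 at 14 d (edgeR q = 4.66e-05). Neutrophil markers in monocytes summed to 566 to 848 CPM in control, 470 to 1622 CPM at 3 d and 1013 to 1870 CPM at 14 d. At 3 d, 4 of 11 tested were called higher than in control and 1 lower, where 36.8% of all genes were called higher. At 14 d, 2 were called higher and 9 were not called, where 3.22% of all genes were called higher. *Ly6g*, a surface marker of neutrophils, was at 0.225 to 2.26 CPM at 3 d and 0.106 to 1.34 CPM at 14 d. The part of neutrophils in the *Cxcl2* and *Cxcl3* values was not tested.

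Genes with profiles nearest to the members were found by the root mean square difference of centred log2 CPM over the samples of a cell type. For *Cxcl3* in 12 monocyte samples the nearest of 11059 genes was *Igf1*, an insulin-like growth factor, at 0.753 log2 units, where the profile of *Cxcl3* itself had a root mean square of 2.50. For *Cxcl2* it was *2510009E07Rik* at 0.418, and for *Ccl6* *Rnf7* at 0.122, followed by the lysosomal glycoprotein *Cd68* at 0.135. In 10 macrophage samples the nearest of 13014 genes was *H2-Ob* for *Ccl4*, at 0.281, *Cd93* for *Ccl6*, at 0.199, and *Gk* for *Cxcl3*, at 0.435. Between members, *Ccl6* and *Ccl9* were the closest pair in monocytes, at 0.295, and *Ccl3* and *Ccl6* in macrophages, at 0.372. The samples behind each distance share their libraries and scaling, so a small distance is a description only.

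**Figure D4:**
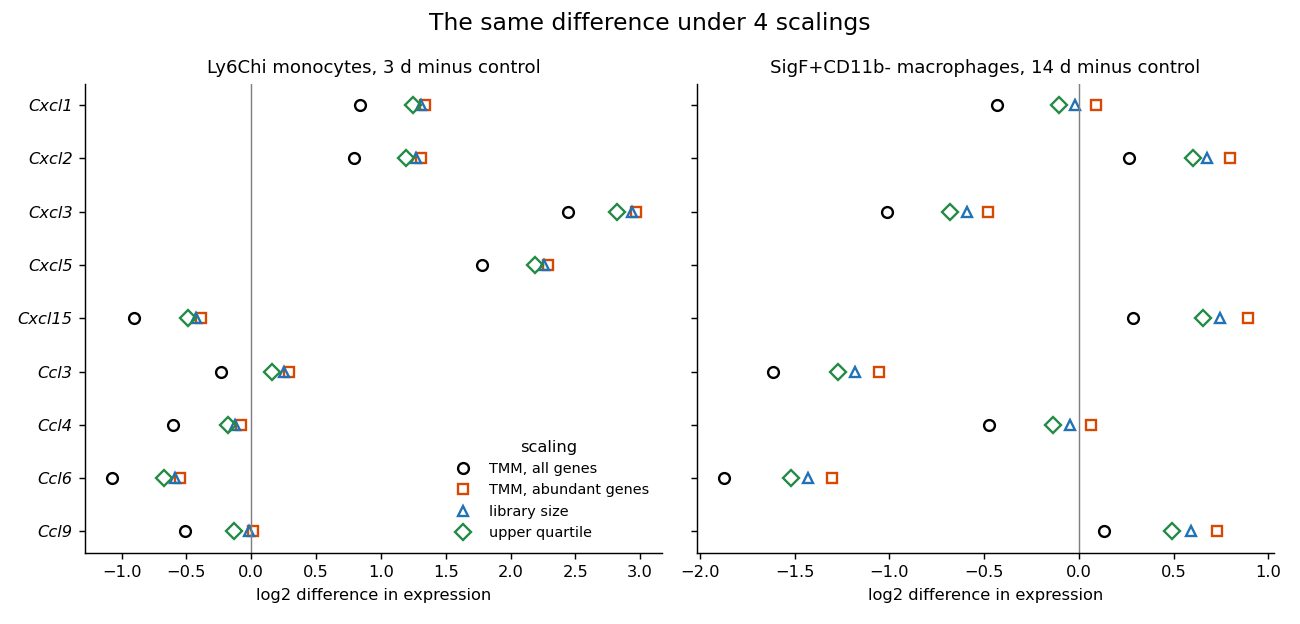
Log2 difference from control of each chemokine gene under 4 scalings, in monocytes at 3 d (left) and macrophages at 14 d (right); each symbol is 1 scaling, the panels have different x axes, and *Cxcl5* was not tested in macrophages. All members shift together, so that *Ccl3* in monocytes moves from -0.23 to 0.29 and *Ccl6* in macrophages from -1.88 to -1.30, while *Cxcl3* in monocytes lies between 2.44 and 2.97.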

How the data were processed

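RNA was sequenced from monocytes and macrophages sorted by flow cytometry (oligo(dT) libraries, paired-end reads). The authors deposited raw counts per gene, 1 table per cell type. The submitters' processing notes name STAR 2.7.2c and 2.7.3a, featureCounts 1.6.3, DESeq2 1.26.0 and 1.28.1 and GRCm38, without saying which made which table; the strand setting is not given in the sources used here. Groups came from the labels.

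From the counts, genes were filtered with filterByExpr, scaled by TMM and tested with edgeR 4.0.16 (limma 3.58.1, R 4.3.3) by robust quasi-likelihood fits, 1 per cell type over its 3 groups and 1 over all 22 samples for differences between cell types. P-values were adjusted by Benjamini-Hochberg over all genes tested, and calls needed an adjusted p under 0.05 with a fold above 1.5. CPM within a cell type used its own TMM factors, and log2 CPM a prior count of 2. Levels per kilobase used the longest protein-coding transcript of GENCODE M21. The depth was 4610720 to 28789639 counts per sample. The scripts were tested on simulated data. Alternatives were DESeq2 1.42.0, other scalings and filters, a replicate block and leaving out each replicate. From each pathway list the rule named up to 4 called genes per comparison with a mean log2 CPM above 3, by size of change, and the 3 genes nearest in profile to a called member; *Ccr3*, *Cxcr2* at 3 d in monocytes, *Il1b* at 14 d in monocytes and the marker genes were named after their values were seen. The 9 genes and the gene lists were chosen with earlier results of these data known. Counts over the receptor list are not reported here.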

Additional observations from a re-analysis of the deposited data

Results flagged for a closer look

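*Cxcl5* in control macrophages was flagged because replicate 2 lay apart from the others, at a log2 CPM of -1.32 from 3 counts, while the other 3 libraries had 0 counts. Of 36 groups of values examined, 1 was flagged, and chance flags about 1 in 20.

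The change from control differed between macrophages and monocytes by an edgeR interaction test for 2 genes at 3 d and 5 genes at 14 d, given as macrophages minus monocytes on the log2 scale. At 3 d the difference was 2.02 for *Ccl4* and 1.23 for *Ccl6*. At 14 d it was -7.26 for *Cxcl3*, -2.70 for *Ccl3*, -2.59 for *Cxcl2*, -2.19 for *Ccl6* and -1.55 for *Ccl4*. Of all genes tested, 18.8% differed at 3 d and 37.0% at 14 d. Cell type and count table cannot be told apart in this test.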

How the results depend on the processing

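Of 1924 alternative values for single genes, 1798 kept their direction and side of the threshold, 38 lost the call, 49 gained it and 39 changed sign. Counts of members called moved in few settings. In monocytes the count was 4 at 3 d with no filter on low counts (2 in the report) and 3 between 3 d and 14 d with TMM from genes above log2 CPM 5 (6). In macrophages at 3 d (1) it was 0 under glmTreat, 2 with only the groups compared and 0 to 2 with a replicate left out. With a replicate block it was 4 at 14 d in macrophages (2). Same-numbered samples correlated above 0.1 in 6 of 12 pairs of monocytes and 2 of 9 of macrophages. For differently numbered samples the counts were 14 of 36 and 5 of 24. These counts do not show a pairing by replicate number and cannot exclude one.

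Signs that changed were of differences that had not passed the test. In monocytes at 3 d, *Ccl3* was 0.25 with library size scaling, 0.10 with a mean log2 CPM above 1, 0.29 with TMM from abundant genes and 0.16 with upper quartile scaling, and *Ccl9*, which had passed the test but not the fold, was 0.013 with TMM from abundant genes. *Ccl6* at 14 d was 0.073 with library size scaling and 0.027 with TMM from abundant genes. In macrophages at 14 d, TMM from abundant genes gave 0.090 for *Cxcl1* and 0.067 for *Ccl4*, the replicate block -0.059 for *Cxcl15* and -0.031 for *Ccl9*, and no filter -0.062 for *Ccl9*. From 3 d to 14 d in macrophages, *Cxcl2* was 0.26, 0.12, 0.34 and 0.16 under the same 4 scalings and filters as *Ccl3* above, *Cxcl15* 0.0032 with TMM from abundant genes, and *Ccl9* 0.14 and 0.19 with library size scaling and TMM from abundant genes. The *Ccl9* difference between cell types at 14 d was 0.22, 0.052, 0.43 and 0.24 under those 4.

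With a replicate left out, the differences ranged from -0.50 to 1.34 for *Cxcl1* in monocytes at 3 d, and at 14 d from -0.0075 to 2.84 for *Cxcl5* and -0.091 to 0.043 for *Ccl6*. In macrophages at 14 d they ranged from -0.12 to 0.47 for *Cxcl2*, -0.48 to 0.59 for *Cxcl15* and -0.11 to 0.51 for *Ccl9*, and from 3 d to 14 d from -0.68 to 0.071 for *Cxcl2*. Between cell types *Cxcl5* ranged from -0.49 to 4.40 at 14 d and from -4.50 to 0.39 in control. The causes were not tested.

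Over all genes, library size scaling moved the median difference from 0.22 to 0.70 in monocytes at 3 d and from 0.18 to 0.61 in macrophages at 14 d. With TMM from abundant genes, 9871 genes were called higher and 439 lower in monocytes at 3 d (8215 and 3223), and 10430 and 1235 in macrophages at 14 d (8258 and 4793). All genes called in macrophages at 3 d numbered 267, against 763 by DESeq2, 65 by glmTreat and 133 with the block. A mean log2 CPM above 1 gave 2328 calls in monocytes at 3 d (11438) and 5752 in macrophages at 14 d (13051), and no filter gave 19592 and 18736. The low counts of *Cxcl5* and *Cxcl15* limit what can be seen of them.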
